A study of Mus musculus with 6 samples.

Results

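The genes described here carry calcium out of the endoplasmic reticulum (ER) and refill it from outside the cell. They are the IP3 receptors Itpr1, Itpr2 and Itpr3, the ER calcium sensors Stim1 and Stim2, the plasma membrane channel subunits Orai1, Orai2 and Orai3, and the transient receptor potential channels Trpa1 and Trpc1. They were chosen by symbol, each symbol matched 1 row, and the 10 genes are 10 of the 43383 rows of the expression table. Total RNA had been sequenced from GFP-positive cells sorted from the somatosensory cortex of male mice aged 4 weeks. The mice were of the genotype Aldh1l1-eGFP, in which the Aldh1l1 promoter drives GFP in astrocytes. Upper-layer astrocytes (ULAs) came from tissue dissected from layers II–IV and deep-layer astrocytes (DLAs) from layers V and VI of the same 3 brains. All animals carried the same transgene, the labels name no treatment, and the groups are set by the layer of origin. Layer I, the corpus callosum and the meninges had been taken off, and some of layers IV and V was discarded at the cut.

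Astrocytes are not electrically excitable, and calcium is a main signal within them. When a transmitter acts on a receptor coupled to a Gq protein, phospholipase C makes IP3, and IP3 opens receptor channels in the ER membrane so that stored calcium enters the cytosol. STIM proteins sense the fall of calcium in the ER and open ORAI channels in the plasma membrane, which is known as store-operated calcium entry. TRPC1 has been linked to the same entry pathway, and TRPA1 is a calcium-permeable channel of the plasma membrane that responds to irritant compounds.

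Values are given as RPKM, a read number scaled by mRNA length in kilobases and by library size, so that levels of different genes are compared per length. The depth was 24.45 to 26.7 M reads in ULAs and 19.7 to 29.6 M reads in DLAs, lowest in the DLAs of brain 2. The RPKM of Aldh1l1 itself was 221.9 ± 19.8 for ULAs and 245.4 ± 23.8 for DLAs (SD, n = 3), and the difference did not pass the threshold (adjusted p = 0.562, limma; log2 fold change −0.14). The summed RPKM of 8 astrocyte markers lay between 10382 and 11038 in ULAs and between 9422 and 10399 in DLAs. The sum of 8 neuronal markers was 8.26 to 8.85 against 6.12 to 8.07, that of 8 microglial markers 13.57 to 14.69 against 9 to 12.08, and that of 8 endothelial markers 0.75 to 1.32 against 0.44 to 3.15. Pericyte and smooth muscle markers (6 genes) summed to 16.08 to 23.12 against 11.86 to 19.03, and meningeal fibroblast markers (5 genes) to 3.07 to 4.1 against 4.95 to 6.27, with Slc6a13 at 0 in all 6 libraries. Markers of oligodendrocytes (8 genes) summed to 87 to 176.53 RPKM in ULAs and 175.62 to 274.28 in DLAs, those of oligodendrocyte precursors (5 genes) to 5.41 to 6.19 against 6.45 to 19.8, and 4 red blood cell rows to 0.94 to 1.79 against 15.35 to 76.71. Of these lists, 5 of 7 tested oligodendrocyte markers, 3 of 4 red blood cell rows and 1 of 8 astrocyte markers were higher in DLAs and 1 of 2 tested pericyte markers was higher in ULAs (adjusted p under 0.05, limma), and no tested marker of the other lists passed. Some of these sums rest mainly on 1 gene. Over the 6 libraries the mean RPKM was 8.23 for Olig2 (precursors), 10.7 for P2ry12 (microglia), 14.5 for Pdgfrb (pericytes) and 3.77 for Col1a1 (fibroblasts). Of the other precursor markers, Cspg4 was higher in ULAs and Sox10 in DLAs of each brain, and Pdgfra and Gpr17 were near 0. In such bulk samples, fewer cells of a type and less RNA per cell cannot be told apart.

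Astrocytes of both layers contained mRNA for at least 1 member of each step, and the levels of the members spanned a wide range. Orai1 was the most abundant, at a mean of 54.7 RPKM over the 6 libraries, followed by Orai3 (20.4), Stim1 (14.1) and Itpr2 (11.2). Stim2 (2.77), Trpc1 (2.66) and Itpr1 (1.24) were lower. Orai2 (0.102) and Itpr3 (0.005) were close to 0, and Trpa1 was listed at 0 in all 6 libraries. In this order of mean RPKM, Orai1 stood apart from Orai3 and Itpr2 from Stim2, since their ranges over the 6 libraries did not overlap, and so did Itpr1 from Orai2 and Orai2 from Itpr3. The ranges of Orai3 and Stim1, of Stim1 and Itpr2, of Stim2 and Trpc1, and of Trpc1 and Itpr1 overlapped, so the spread over libraries does not separate these neighbours. Within single libraries, Orai3 was above Stim1, Stim1 above Itpr2 and Trpc1 above Itpr1 in 6 of 6, and Stim2 above Trpc1 in 5 of 6. Orai1 lay above 89.5% of the 13999 rows whose RPKM averaged 1 or more, Orai3 above 73.0%, Stim1 above 64.2%, Itpr2 above 58.3% and Itpr1 above 4.21%.

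**Figure D1:**
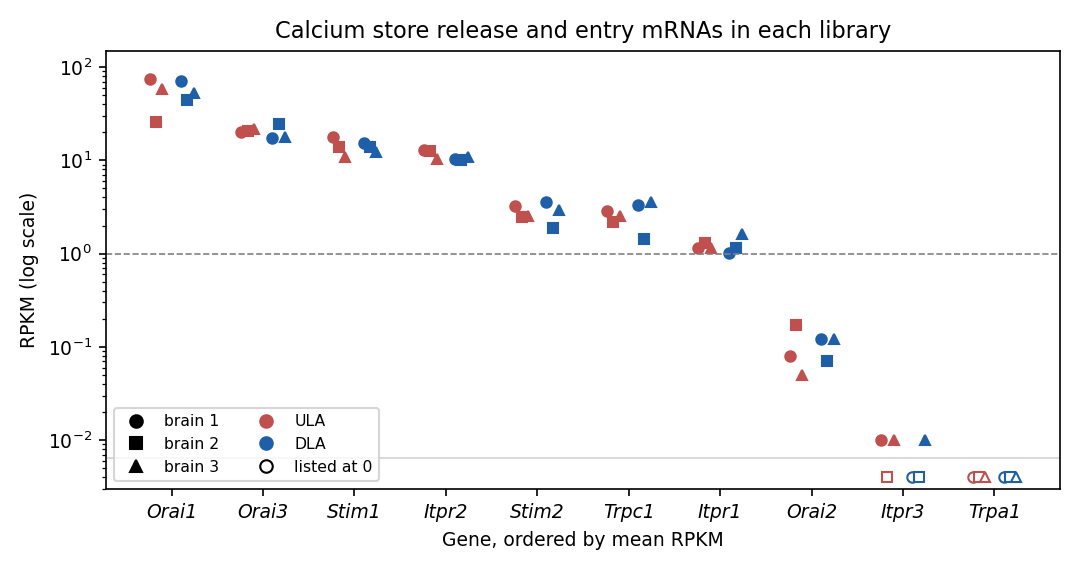
RPKM (log axis) of each gene in each library, with ULAs in red and DLAs in blue and the brain given by the symbol. Open symbols below the grey line are values listed at 0, the dashed line marks 1 RPKM, and the 7 genes above it show red and blue symbols at overlapping heights.

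Among the IP3 receptors, Itpr2, the isoform best known from astrocytes, was the main one in both layers. In brains 1, 2 and 3, its RPKM was 12.88, 12.48 and 10.31 for ULAs and 10.47, 10.18 and 10.79 for DLAs, from 2366 to 3783 reads per library. The ULAs of brains 1 and 2 were above all DLAs, whereas the ULAs of brain 3 were below the DLAs of brains 1 and 3, so the layers overlapped. The log2 fold change (upper minus deep, on the log2(RPKM + 1) scale) was 0.16 (SE 0.12, 95% interval −0.12 to 0.44, adjusted p = 0.553, limma). In this fit it was the second largest in size among the members. The gene spans 393.9 kb of chromosome 6 (mm9, 146056821 to 146450745, minus strand) with 57 exons and an mRNA of 11823 bases.

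Itpr1, the major IP3 receptor of many neurons, was at 1.16, 1.30 and 1.14 RPKM in ULAs and at 1.01, 1.16 and 1.64 in DLAs of brains 1 to 3. The highest value, 1.64, was that of the DLAs of brain 3, and the other 5 libraries lay between 1.01 and 1.30. That library had the lowest sum of neuronal markers (6.12 RPKM) and the highest sums of oligodendrocyte (274.28) and red blood cell (76.71) markers of the 6, and the part of these in the value was not tested. The log2 fold change of Itpr1 was −0.04 (SE 0.17, 95% interval −0.41 to 0.34, adjusted p = 0.939, limma). The values rest on 226 to 481 reads. Itpr1 lies 37.6 Mb from Itpr2 on the same chromosome (mm9, 108163090 to 108501110, plus strand, 62 exons, mRNA of 9877 bases).

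Itpr3, on chromosome 17 (mm9, 27194249 to 27259168, plus strand, 58 exons), had a listed RPKM of 0.01 for ULAs of brains 1 and 3 and for DLAs of brain 3 and at 0 in the other 3 libraries. Given the depth and the mRNA length of 8990 bases, this corresponds to between 9 and 18 reads over all 6 libraries, too few for a comparison of layers. Of the IP3 receptor RPKM, Itpr2 therefore made up 90.7 ± 0.866% among ULAs and 89.2 ± 2.28% among DLAs (SD, n = 3), and it exceeded Itpr1 by 6.58 to 11.1 times within a library. The Itpr2 share was higher in ULAs than in DLAs of the same brain in all 3 brains, by 0.471 to 3.23 percentage points. The exact paired permutation test gave p = 0.25 (2-sided), the smallest that 3 pairs allow, and 0.438 after Benjamini-Hochberg adjustment over the 7 ratios and shares compared.

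Stim1, the ER calcium sensor with the main part in store-operated entry in many cell types, had RPKM values of 18.02, 13.97 and 10.91 in ULAs (brains 1, 2 and 3) and of 15.26, 13.79 and 12.41 in DLAs. Both layers were highest in brain 1 and lowest in brain 3, and the DLA values lay within the range of the ULA values. Its log2 fold change was 0.02 (SE 0.12, 95% interval −0.25 to 0.30, adjusted p = 0.944, limma). The 169.0 kb gene is on chromosome 7 (mm9, 109416338 to 109585369, plus strand), 25.3 Mb from Orai3, with 12 exons and an mRNA of 3604 bases.

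Stim2, a sensor known to respond to smaller drops of ER calcium, was at 3.24, 2.47 and 2.55 RPKM in ULAs and at 3.55, 1.88 and 2.94 in DLAs. Brain 2 was lowest in both layers, and the layers overlapped. The difference between layers was close to 0 (log2 fold change 0.01, SE 0.15, 95% interval −0.33 to 0.35, adjusted p = 0.991, limma). Stim2 has 12 exons, as Stim1 does, and lies on chromosome 5 (mm9, 54389762 to 54512296, plus strand, mRNA of 4910 bases). Of the STIM RPKM, Stim1 made up 83.6 ± 2.20% among ULAs and 83.3 ± 4.05% among DLAs (SD, n = 3).

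Orai1, the pore subunit of the best described store-operated channel, had the largest spread between brains of the 7 members tested. For brains 1, 2 and 3, its RPKM was 75.43, 26.09 and 58.72 among ULAs and 71.61, 43.99 and 52.63 among DLAs. Brain 2 was lowest and brain 1 highest in both layers, and the ULA of brain 2 was the lowest of the 6 libraries. Averaged over the layers, Orai1 was 2.10 times higher in brain 1 and 1.59 times higher in brain 3 than in brain 2. In the same limma fit, the brain term had an adjusted p of 0.035 for Orai1, a test chosen after its values were seen, against 0.254 to 0.884 for the other 6 members tested, and 2.85% of all tested rows passed. It was above 0.05 in 4 of 7 alternative fits, as with median centring (adjusted p = 0.0536). An animal and the preparation of its tissue cannot be told apart in this design.

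Between layers, the log2 fold change of Orai1 was −0.17 (SE 0.16, 95% interval −0.52 to 0.19, adjusted p = 0.644, limma). In this fit it was the largest in size of the 7. That of Itpr2 was larger in size with median centring (0.17 against −0.16) and quantile normalization (0.18 against −0.08). Orai1 was higher in DLAs in brain 2 only, with upper/deep ratios of 1.05 in brain 1, 0.593 in brain 2 and 1.12 in brain 3. The log2 fold change was 0.11 when brain 2 was left out. The values rest on 1251 to 3561 reads, and Orai1 has only 2 exons in 15.4 kb of chromosome 5 (mm9, 123465083 to 123480461, plus strand, mRNA of 1871 bases).

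Orai3, a related subunit that can join ORAI1 in channels, varied far less. It was at 20.08, 20.53 and 21.59 RPKM in ULAs and at 17.39, 24.69 and 18.01 in DLAs, from 923 to 1151 reads. The ULAs fell between the DLA values, and the DLAs of brain 2 were the highest library, where Orai1 was at its lowest among DLAs. Its log2 fold change was 0.06 (SE 0.13, 95% interval −0.22 to 0.35, adjusted p = 0.848, limma). Like Orai1 it has 2 exons, in 5.34 kb of chromosome 7 (mm9, 134913329 to 134918664, plus strand, mRNA of 1996 bases).

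Orai2, on chromosome 5 at a distance of 13.1 Mb from Orai1 (mm9, 136623332 to 136646526, minus strand, 3 exons), was at 0.08, 0.17 and 0.05 RPKM in ULAs and at 0.12, 0.07 and 0.12 in DLAs. These are 6 to 17 reads per library, so the ULA of brain 2 stood above the others by a few reads. Orai1 made up 55.8 to 78.9% of the ORAI RPKM in ULAs and 64.0 to 80.4% in DLAs. It was higher than Orai3 in 6 of 6 libraries, by 1.27 times in the ULAs of brain 2 up to 4.12 times in the DLAs of brain 1, and this ratio was lower in ULAs than in DLAs in 3 of 3 brains, by 0.202 to 0.511 (exact paired permutation p = 0.25, adjusted 0.438). The level of Orai1 also exceeded that of Stim1 in every library, by 1.87 to 5.38 times.

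**Figure D2:**
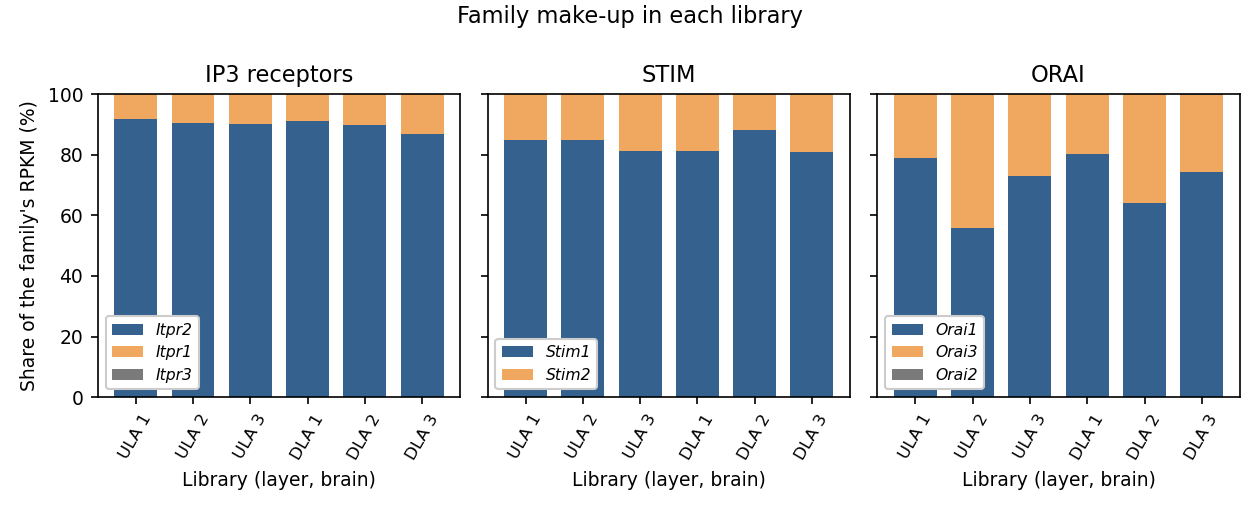
Share of each family's summed RPKM (percent, axis from 0) taken by each gene in each library, for IP3 receptors, STIM and ORAI genes. Itpr2 takes 86.7 to 91.7% and Stim1 80.8 to 88.0%, and the Orai1 share is lowest in both libraries of brain 2; Itpr3 and Orai2 are too low to be seen.

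Of the TRP channels, Trpc1 was at 2.90, 2.18 and 2.52 RPKM in ULAs and at 3.36, 1.43 and 3.59 in DLAs, from 85 to 320 reads. Brain 2 was lowest in both layers, and the DLA values enclosed the ULA values. The log2 fold change was −0.05 (SE 0.17, 95% interval −0.44 to 0.34, adjusted p = 0.913, limma), and the gene lies on chromosome 9 (mm9, 95607048 to 95650777, minus strand, 13 exons, mRNA of 3012 bases). Trpa1, on chromosome 1 (mm9, 14862729 to 14908943, minus strand, 27 exons, mRNA of 4263 bases), was listed at 0 in all 6 libraries. At this depth and with the values cut to 2 decimals, a listed 0 means at most 1 read per library, so Trpa1 mRNA was not detectable at this depth.

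Over the set, 0 of the 7 members that averaged 1 RPKM or more differed between ULAs and DLAs at an adjusted p under 0.05, where 1.63% of all 13999 tested rows did (0.714% higher in ULAs and 0.914% higher in DLAs; limma, with the brain as block), and 0 of the 7 had an unadjusted p under 0.05, against 16.4% of all rows. The ULA and DLA values of all 7 overlapped, whereas 15.9% of the tested rows had values that did not overlap, and none of the 7 moved one way in all 3 brains, as 38.4% of all rows did. The median log2 fold change of the 7 was 0.01 and their median absolute value 0.05, against −0.03 and 0.14 over all tested rows. A p-value above the threshold does not show that the layers are alike. As upper/deep ratios of RPKM + 1, the 95% intervals reached down to 0.696 (Orai1) and up to 1.36 (Itpr2). The widest on the log2 scale was that of Trpc1, from a ratio of 0.736 to 1.26. The added 1 understates folds of low genes. With 0.1 added in its place, the interval of Itpr1 was the widest, from −0.71 to 0.60 on the log2 scale. Itpr3, Orai2 and Trpa1 did not enter the test. Itpr1 lay just inside the limit, at a mean of 1.24 RPKM, and Orai2 far below it.

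**Figure D3:**
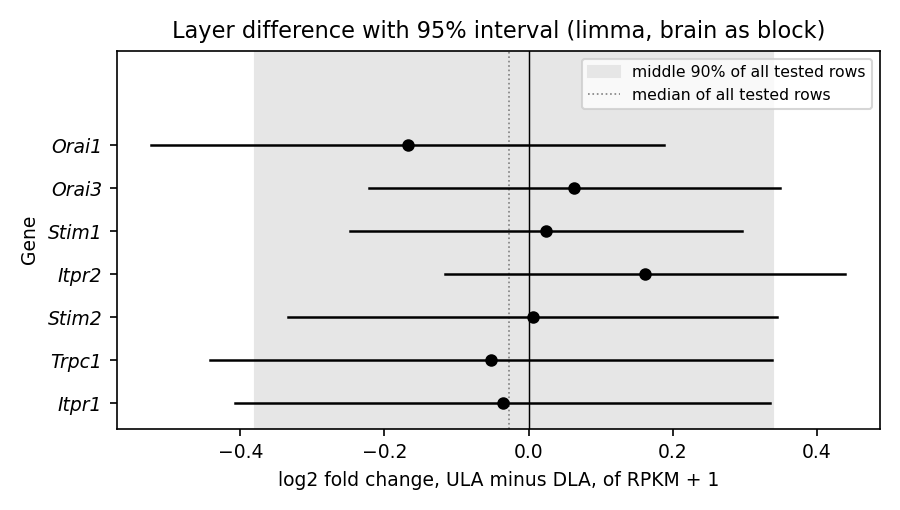
Log2 fold change (ULA minus DLA, of RPKM + 1) of the 7 tested genes with its 95% interval from limma, beside the middle 90% of all tested rows in grey (−0.38 to 0.34). Every interval crosses 0, and the points lie between −0.17 (Orai1) and 0.16 (Itpr2).

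The members differ widely in mRNA length, from 1871 bases (Orai1) to 11823 (Itpr2), and the upper/deep ratio rose with length across the 13999 tested rows, by a Spearman's rho of 0.21, 0.37 and 0.10 in brains 1, 2 and 3. Genes are not independent replicates, so this is a description. In brain 2, where rho was highest, the short Orai1 and Orai3 had upper/deep ratios of 0.593 and 0.832, and the 5 longer members had ratios from 1.01 (Stim1) to 1.52 (Trpc1). With the length trend removed from each brain, the log2 ratio of Orai1 in brain 2 went from −0.73 to −0.65, that of Itpr2 from 0.27 to −0.10 and that of Trpc1 from 0.39 to 0.34. Over the 3 brains the log2 fold change of Itpr2 then fell from 0.16 to 0.01 (adjusted p = 0.977). Itpr1 went from −0.04 to −0.19 (adjusted p = 0.589), the largest in size of the 7 after the correction, and was then below 0 in 3 of 3 brains. Stim1 and Stim2, close to 0 before, had −0.05 and −0.12 after the correction (adjusted p = 0.879 and 0.716), and 0 members passed.

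**Figure D4:**
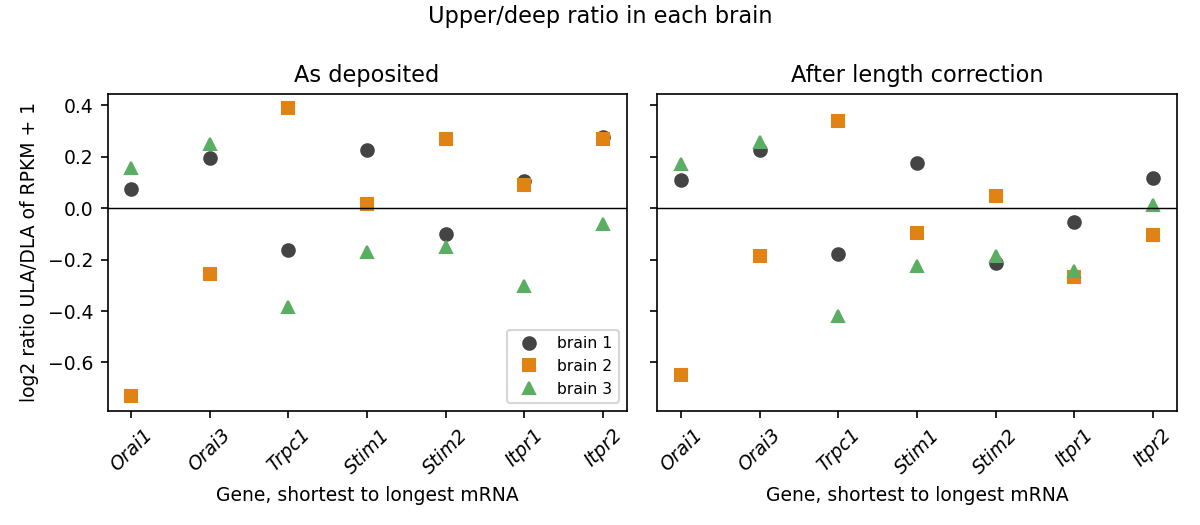
Log2 ratio ULA/DLA of RPKM + 1 for each tested gene in each brain, ordered from the shortest to the longest mRNA, as deposited (left) and with the length trend removed (right). Orai1 in brain 2 is the lowest point in both panels, no gene has all 3 brains on one side of 0 as deposited, and Itpr1 alone does so (below 0) after the correction.

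The other genes of calcium handling were read from 10 lists with 135 genes in all, of which 85 averaged 1 RPKM or more. In the layer comparison 0 of the 85 passed in either direction (limma, lowest adjusted p = 0.114), and 10 (11.8%) had an unadjusted p under 0.05, against 16.4% of all tested rows. Of the 10, 4 were higher in ULAs and 6 higher in DLAs. Of the 85, 0 passed without brain 1, where 1.64% of all tested rows did, and 3 (3.53%) without brain 2, where 2.09% did. Without brain 3, 4 (4.71%) passed, where 7.95% of all tested rows did. Genes that passed only with 1 brain left out are named below after their values were seen. A difference of the same direction in 3 of 3 brains, given below for some genes, was seen in 38.4% of all tested rows. The median log2 fold change of the 85 was −0.03, the same as over all tested rows.

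Where 2 levels are set against each other in what follows, the first is that of ULAs, and errors are SDs (n = 3). Upstream of the receptors, 0 of 11 tested Gq and phospholipase C genes passed, and their median log2 fold change was −0.02. The highest was Plcd4, a phospholipase C of the delta class, at an RPKM of 117.3 ± 16.6 for ULAs and 127.8 ± 20.9 for DLAs (SD, n = 3; log2 fold change −0.12). Plcg1, a phospholipase C downstream of tyrosine kinase receptors, had 0.18 and Gna11, a Gq-class alpha subunit, −0.19, the ends of the list. Of 8 genes that break down IP3 or its products, 0 passed and the median was −0.05. All 8 log2 fold changes were below 0, as were those of most tested rows (44.97% were above 0), and 4 of the 8 lay between −0.033 and 0. Impa1, an inositol monophosphatase, was highest at 47.3 RPKM in either layer, and Inpp5a, a phosphatase that removes a phosphate from IP3, had the lowest log2 fold change, −0.39 (7.76 ± 1.40 against 11.4 ± 5.59 RPKM, adjusted p = 0.358). It passed without brain 2 (adjusted p = 0.0365, log2 fold change −0.72).

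Among 11 tested proteins that bind or regulate IP3 receptors, 0 passed, 1 had a log2 fold change above 0 and the median was −0.12. Grina, a membrane protein of the ER and Golgi, was the highest (616.4 ± 31.1 against 570.9 ± 65.3 RPKM) and the only one above 0 (log2 fold change 0.12). Calm3, a calmodulin gene, had the lowest log2 fold change, −0.41 (14.8 ± 2.67 against 19.8 ± 1.54 RPKM, SE 0.12, adjusted p = 0.12, limma), lower for ULAs in 3 of 3 brains. It passed without brain 3 (adjusted p = 0.0371). Ahcyl1, which encodes the IP3 receptor-binding protein IRBIT, was also lower for ULAs in 3 of 3 brains, with −0.28 on the log2 scale (adjusted p = 0.258, limma; named after its values were seen).

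The ryanodine receptor genes, which encode the other ER calcium release channels, were low. Ryr2 had the highest mean of them at 0.307 RPKM, followed by Ryr3 at 0.112 and Ryr1 at 0.01, so none was tested (these genes were chosen after their values were seen). In their list 3 of 10 genes were tested and 0 passed. Fkbp1a, a ryanodine receptor-binding immunophilin, was at 78.9 ± 7.67 and 82.5 ± 6.72 RPKM (log2 fold change −0.06). Its relative Fkbp1b had the highest log2 fold change, 0.02, and Sri (sorcin), a calcium-binding regulator of ryanodine receptors, the lowest, −0.28 (adjusted p = 0.219).

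ER calcium pumps and their regulators had 6 tested genes, of which 0 passed, with a median of 0.07. Atp2a2, the SERCA pump that returns calcium to the ER, had the lowest log2 fold change of the list, −0.23, at 36.55 ± 6.59 against 46.2 ± 20.5 RPKM (adjusted p = 0.509). Without brain 2 it passed, at −0.51 (adjusted p = 0.042). The most abundant gene was Tmco1, an ER calcium leak protein, at a mean of 54.9 RPKM over the 6 libraries, and Pln (phospholamban), an inhibitor of the pump, had the highest log2 fold change, 0.28 (adjusted p = 0.402).

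All 12 ER luminal calcium-binding genes were tested and 0 passed. Of the 12, 11 had log2 fold changes above 0 (median 0.16), against 44.97% of all tested rows. This is a description, since these genes are not independent replicates. Those with an unadjusted p under 0.05, named after their values were seen and all higher in ULAs in 3 of 3 brains, were Canx (91.4 ± 1.30 against 72.7 ± 11.1 RPKM), Calu (62.7 ± 5.42 against 50.1 ± 5.86) and Calr, or calreticulin, the main calcium store protein of the ER (296.0 ± 17.6 against 255.6 ± 33.6), with adjusted p-values of 0.176, 0.153 and 0.300 (limma). Canx, the chaperone calnexin, passed without brain 3 (adjusted p = 0.0154). Rcn3 had the highest log2 fold change of the list (0.43) at a low level of 1.78 ± 0.660 against 1.07 ± 0.480 RPKM, and Rcn2, the most abundant at 454.0 ± 42.3 against 497.7 ± 64.5 RPKM, was the only gene of the list below 0 (−0.13).

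Of 10 tested regulators of STIM and ORAI, 0 passed and the median was −0.01. Tmem66, now called Saraf, which inactivates store-operated entry, was the most abundant (448.1 ± 45.1 against 417.3 ± 52.4 RPKM, log2 fold change 0.11, adjusted p = 0.626). Esyt2, a tether between the ER and the plasma membrane, was highest by log2 fold change at 0.22, and Sept4, a septin, lowest at −0.28 (adjusted p = 0.227), passing without brain 3 (0.031). Among 27 other TRP channel genes, 8 were tested and 0 passed. Trpm3 was the most abundant (66.4 ± 11.9 against 79.0 ± 12.3 RPKM) and had the lowest log2 fold change, −0.25 (adjusted p = 0.402), while Pkd1, the large polycystin protein, had the highest, 0.34 (adjusted p = 0.224).

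Plasma membrane extrusion had 5 tested genes, of which 0 passed. Atp2b2, a plasma membrane calcium pump, was the most abundant at a mean of 10.9 RPKM over the 6 libraries, and the exchangers Slc24a3 and Slc24a4 had the highest and lowest log2 fold changes, 0.31 and −0.37 (adjusted p = 0.376 and 0.307). Of 11 tested genes of mitochondrial calcium transport, 0 passed, with a median of −0.10. The mitochondrial uniporter pore, listed by its older symbol Ccdc109a (now Mcu), had the highest log2 fold change, 0.09. Its small subunit, 1500032L24Rik (now Smdt1), had the lowest, −0.37 (162.0 ± 14.6 against 209.2 ± 9.92 RPKM, SE 0.10, adjusted p = 0.114, limma), with the smallest adjusted p among the 85. It was lower in ULAs in 3 of 3 brains and passed without brain 3 (adjusted p = 0.0101), and Ccdc90a (now Mcur1), a regulator of the uniporter, passed without brain 2 (adjusted p = 0.0204, log2 fold change −0.64).

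**Figure D5:**
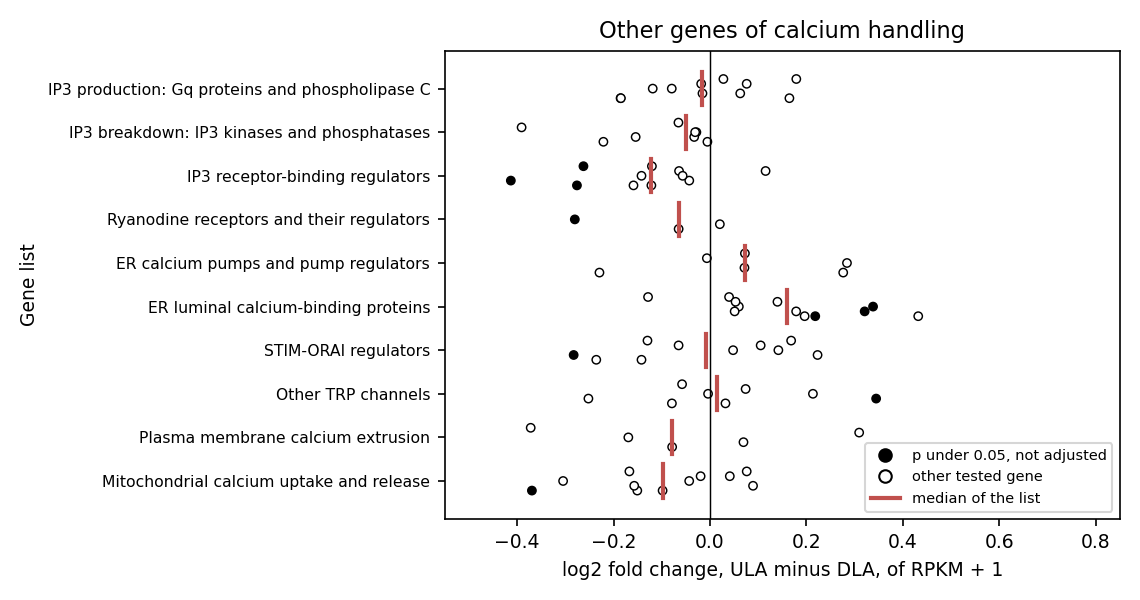
Log2 fold change (ULA minus DLA, of RPKM + 1) of the 85 tested genes in 10 lists, with the median of each list as a red bar. Filled points have an unadjusted p under 0.05 (10 genes), none passes after adjustment, and the ER luminal calcium-binding genes lie mostly to the right of 0 and the regulators that bind IP3 receptors mostly to the left.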

How the data were processed

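The submitters reverse transcribed RNA with a SMART-Seq v4 kit and read 36 bases per fragment from one end. The authors deposited 1 RPKM value per library for 43383 rows, on mm9 per their processing notes (CASAVA 1.8.2, bcl2fastq 1.8.4). The aligner and counter are not given in the sources used here. Of the deposited RPKM values of rows up to 500 bases, 99.95 to 100% per library followed a cut after scaling and another after dividing by length. Those used for the depth all (100%) read back as whole reads at 1 depth per library (at most 88.0% at the next best), which gave depths and read numbers. These cover counting error only.

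Rows averaging 1 RPKM or more (13999) entered limma 3.58.1 (R 4.3.3; lmFit, eBayes with trend = TRUE) as log2(RPKM + 1), which understates folds of low genes. Layer and brain were terms, tests were 2-sided, and Benjamini-Hochberg adjustment ran over all rows (threshold 0.05). The replicate number was taken as the brain: deviations from layer means correlated within a number (r of 0.422, 0.333 and 0.341 across rows). The r between numbers (−0.199 to −0.160) add no separate support, because the 3 deviations of a layer sum to 0. The correlation alone does not show that a number is 1 brain. An exact test of 3 against 3 cannot go below 0.1. In simulated data, the fit recovered 48% of 200 rows changed by 0.5 on the log2 scale, with 14 false calls. It recovered 100% at a change of 1, with 11 false calls, and made 0 false calls with no change.

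Alternatives were no block, a pseudocount of 0.1, no filter or 5 RPKM, centring on medians, quantile normalization, leaving out brains, a loess correction for length (span 0.5) and no trend. Named genes were all members and, per list, the highest level, both ends of the fold changes and any that passed. Genes that passed with 1 brain left out were also named. Members and lists were chosen with earlier results of these data known. Of 6 red blood cell symbols, 4 were in the table.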

Additional observations from a re-analysis of the deposited data

How the results depend on the processing

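The number of members that passed was 0 in the fit with the brain as a block and in all 11 alternatives. Of the 74 recomputed member fold changes, 0 had an adjusted p under 0.05, and 10 changed sign. Of these 10, the length correction turned Stim1 (−0.0482) and Stim2 (−0.12), and the others came from leaving out 1 brain. Leaving out 1 brain at a time gave log2 fold changes from −0.11 to 0.10 for Itpr1, 0.11 to 0.27 for Itpr2, −0.0768 to 0.12 for Stim1, −0.13 to 0.0835 for Stim2, −0.33 to 0.11 for Orai1, −0.029 to 0.22 for Orai3 and −0.27 to 0.11 for Trpc1. Itpr1, Stim2 and Trpc1 were not tested at a mean of at least 5 RPKM. Without the replicate block 0 members passed, and the number of all rows that passed fell from 228 (100 higher in ULAs and 128 in DLAs) to 41 (23 and 18). The number was 143 (63 and 80) after the length correction, 144 (65 and 79) without the intensity trend and 0 (0 and 0) with no filter, where more rows were tested. Quantile normalization turned the balance to 138 higher in ULAs and 103 in DLAs. With 1 brain left out it ran from 230 to 1113 (104 to 426 higher in ULAs, 126 to 687 in DLAs), highest without brain 3. The genes of the 10 lists that passed numbered 0 in the main comparison and 0 to 4 with 1 brain left out. The order of the member levels kept 8 to 10 of 10 places. The difference of Orai1 between brains, looked at after the data were seen, had an adjusted p of 0.0708 after the length correction, 0.0536 with median centring, 0.453 with no filter and 0.0992 without the intensity trend, and stayed under 0.05 in the other 3. Except where said, the cause of these shifts was not tested. For Orai2, Itpr3 and Trpa1, read numbers limit any comparison.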

Other observations

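In rows of up to 500 bases, 99.95 to 100% of the deposited values per library followed a rule of 2 cuts. The first came after scaling by library size and the second after dividing by length. If this rule also holds for longer rows, a listed value of 0 hides up to 2 reads for the 8990 bases of Itpr3 and up to 1 read for the 4263 bases of Trpa1. Over the 6 libraries this leaves 0 to 5 reads for Trpa1, 9 to 18 for Itpr3 and 64 to 65 for Orai2. No other row of the table overlaps the exons of Orai1, Orai2, Orai3, Itpr1, Itpr2, Stim1, Stim2, Trpa1 or Trpc1, and 1 row on the opposite strand, listed at 0, shares 233 exon bases with Itpr3.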
